A study of Caenorhabditis elegans with 2 samples.

Results

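Potassium channel genes that open with voltage or calcium were followed through the peaks of tagged UNC-42 in whole late embryos of Caenorhabditis elegans. The 10 genes were slo-1, slo-2, egl-2, egl-36, shk-1, shl-1, unc-103, exp-2, kvs-1 and kqt-1, out of 19973 protein-coding genes in the Ensembl annotation of WBcel235 (ce11). They were taken by name for their family, with earlier results of these data known. A summit, the point of highest signal that the deposited list gives for a peak, was counted for a gene when it lay in the gene body or up to 5000 bp upstream of it. That window held 15 summits of the optimal set, at 7 of the 10 genes. The optimal set is the 4780 peaks that passed the threshold of the irreproducible discovery rate (IDR), a measure of how well peak ranks repeat between replicates.

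The chromatin came from hermaphrodite embryos of strain OP173, collected 3 hours after synchronisation by egg bleaching, in 2 biological replicates of 1 group. Both replicates carried UNC-42 fused at its C terminus to GFP and FLAG, and an antibody against GFP was used for the immunoprecipitation, per the description in the labels. Their antibody entry names unc-42 instead. Both replicates are listed under the same donor strain, so they test 1 transgenic line. Whole embryos were used, so the cells in which a site was occupied cannot be told apart, and the peaks of a channel gene say nothing of its expression. No untagged sample was analysed here, so the peaks are not shown to depend on UNC-42. There was no second condition, so the values are described without a test and are set beside the same values over all genes or all summits. The peak lists carry no read counts. The depth behind each peak is therefore unknown, and each peak's signal or rank in both replicates is given in place of an error. Signals are the authors' own values, on a separate scale in each list, so ranks, with 1 the strongest, are given beside them.

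UNC-42 is a paired-type homeodomain transcription factor that helps to set the identity of sensory, motor and command interneurons. Potassium channels carry the outward current that returns a neuron or a muscle cell to rest after excitation. Voltage-gated families differ in how fast they open and inactivate, and the SLO channels add a gate that responds to ions inside the cell. In C. elegans these channels set the firing of neurons and the contractions of egg-laying, pharyngeal and body wall muscle.

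The summits were spread unevenly over the family. The ERG-type channel gene unc-103 held 5, slo-2 held 3, and slo-1 and kvs-1 held 2 each. A single summit lay at egl-36, shl-1 and exp-2, and none at egl-2, shk-1 and kqt-1. Among the first 4780 entries of replicate 2 alone slo-2 had 1, and among those of replicate 1 alone kvs-1 had 1, while unc-103 had 5 in either. Of all protein-coding genes, 5545 (27.8%) had at least 1 optimal summit in the same window, and 7.82% had at least 2, which held for 4 of the 10 channel genes. The channel genes are long, with windows of 10786 to 36894 bp and a median of 15690 bp, against 7027 bp over all genes. Among the 2475 protein-coding genes with windows in that range, 49.1% had a summit. The 10 windows together held 0.819 summits per 10 kb, against 0.582 in genes of that range and 0.485 in all genes. The distance to genes in that range was thus smaller than that to all genes. Lengths were not matched within the range. A summit was held by 42.5% of genes with windows of 10000 to 15000 bp. For 15000 to 20000 bp it was 51.2%, and for 20000 to 30000 bp 63.9%. Above 30000 bp, the class of unc-103, it was 71.6%, with a mean of 2.53 summits per gene. The share with at least 2 summits was not counted by length, and no test was made over these chosen genes. The background also differed by chromosome, as 17.3% of the genes on chromosome V had a summit and 30.8% of those on X. The share was 36.8% on III, the highest of any chromosome, 27.8% on II and 26.6% on IV. The 3 members on V are slo-1, egl-2 and exp-2, and the 4 on X are slo-2, egl-36, kvs-1 and kqt-1. Of the others, unc-103 is on III, shk-1 on II and shl-1 on IV.

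**Figure D1:**
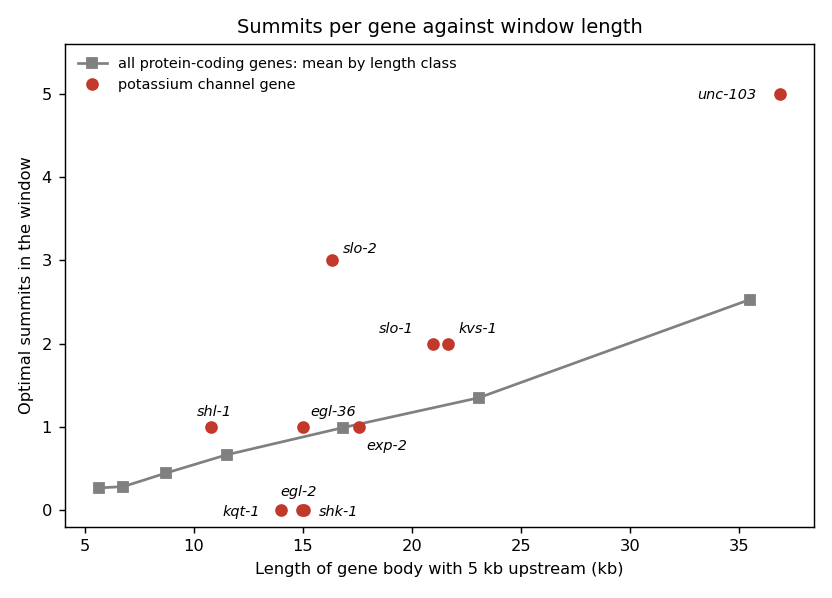
Optimal summits in each gene's window (vertical axis) against the length of the gene body with 5 kb upstream (horizontal axis, kb). Red points are the 10 potassium channel genes and grey squares are the mean over all protein-coding genes in 7 classes of window length, drawn at the median length of the class. unc-103 and slo-2, with 5 and 3 summits, lie farthest above the line, and egl-2, shk-1 and kqt-1 lie at 0.

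Most of these summits lay inside the genes. Gene bodies held 11 of the 15 summits (73.3%), and the other 4 lay upstream, at slo-1, slo-2 and shl-1. Over all genes counted by the same window, 21.3% of 7964 gene and summit pairs lay in the gene body. Longer genes have more body for the same 5000 bp upstream, and the part of length in this contrast was not tested. All 11 lay in introns of the gene itself, as did 81.2% of the 1696 pairs in gene bodies of all genes. Of these 11, 6 lay in the first intron of every transcript that spans them, and 10 in the first intron of at least 1 transcript. The same held for 30.2% and 44.3% of those pairs. All 5 summits of unc-103, which has 10 transcript starts, were among the 10. A gene with more starts has more first introns, and the number of starts was not matched. No other protein-coding gene had a nearer 5' end for 12 of the 15 summits (80%), against 50.8% of all pairs. The exceptions were both summits of kvs-1, nearer to the 5' end of clik-2, and 1 of unc-103, nearer to that of wht-3.

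**Figure D2:**
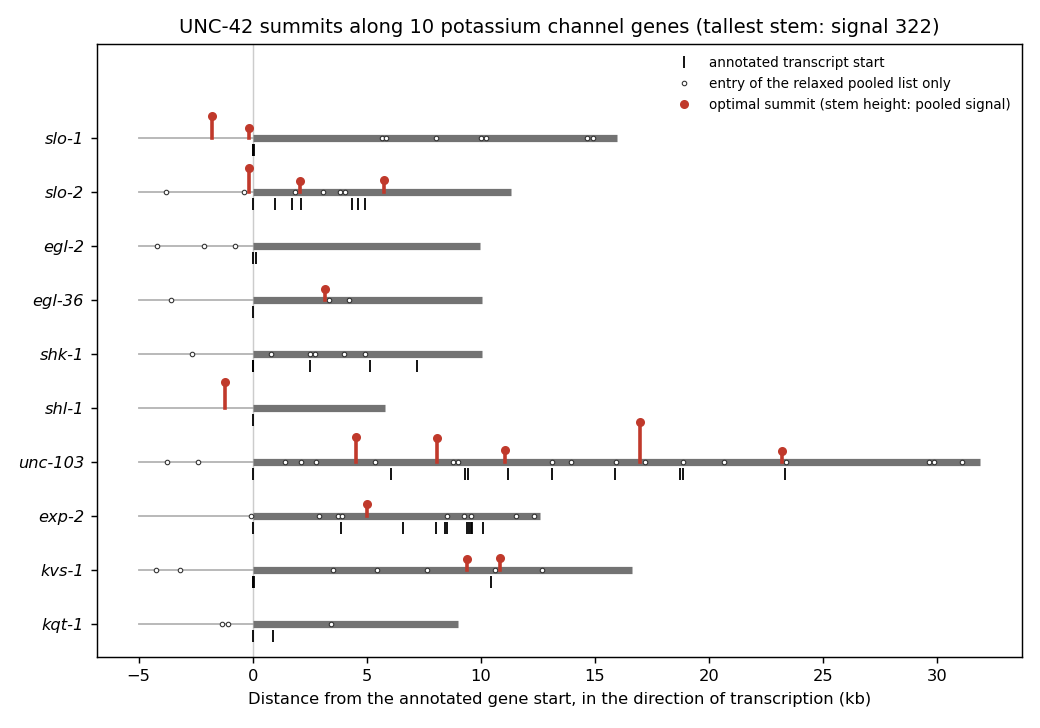
The 10 genes drawn from their annotated start at 0 (horizontal axis, kb, in the direction of transcription), with the gene body as a thick line and 5 kb upstream as a thin line. Red stems are optimal summits with a height in proportion to their pooled signal, open points are entries of the relaxed pooled list outside the optimal set, and black ticks are annotated transcript starts. The 5 summits of unc-103 stand along its body, while those of slo-1 and shl-1 stand upstream of the start.

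Both calcium-responsive SLO genes had a summit close to the gene start. slo-1 (WBGene00004830) encodes the BK channel, gated by voltage and calcium, which limits transmitter release at presynaptic terminals and is the target of ethanol and of the drug emodepside in worms. It lies on the plus strand of chromosome V (18492261 to 18508212). Its stronger summit was intergenic, 1780 bp upstream at position 18490481. The signal there was 77.2 in replicate 1 and 101 in replicate 2, which ranked 1745 and 1511 in the respective lists. In the pooled list the signal was 177, at rank 1593. The second summit lay 145 bp upstream at position 18492116, with a signal of 27.1 (rank 7927) in replicate 1 and 56.9 (rank 3672) in replicate 2. At a pooled signal of 87 (rank 4478) it was close to the lowest value of the optimal set, 81.6, and the replicates placed it far apart. No optimal summit lay in the 15952 bp of its body, although the relaxed pooled list had 7 entries there, the strongest with a signal of 54.1. Replicate 1 alone placed an intronic entry of slo-1 among its first 4780, with a signal of 39.6 at rank 4683. The nearest replicate 2 entry lay 111 bp from it, beyond the 100 bp allowed for a partner. That replicate 2 entry had a signal of 24.8 at rank 10151.

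slo-2 (WBGene00004831) encodes a large-conductance channel that responds to ions inside the cell and carries much of the outward current of motor neurons and muscle. It lies on the minus strand of the X chromosome (11394605 to 11405931). The summit nearest to its start lay 182 bp upstream at position 11406113, in intergenic sequence. Its signal was 75.5 (rank 1809) in replicate 1 and 123 (rank 1028) in replicate 2, and 196 (rank 1306) in the pooled list. The other 2 summits were intronic and weak. That at 11403864 lay 2067 bp inside the gene and 68 bp upstream of the start of a shorter transcript, F08B12.3h.1, with ranks of 4059 and 5090 in replicates 1 and 2. At 11400188, a distance of 5743 bp into the gene and 805 bp past the start of F08B12.3a.1, the signal was 60.7 (rank 2592) in replicate 1 and 32.7 (rank 7104) in replicate 2. This pair of ranks was the farthest apart of the gene's 3 summits.

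The sequence of 100 bases to each side of a summit is shown for the strongest summit of each SLO gene and for the intronic slo-2 summit at 11400188, which holds the site described next. Each is on the strand of the gene, from the RefSeq sequence of WBcel235, 5' to 3'. Capitals mark a pair of homeodomain core sites (TAAT) that face each other 3 bases apart, a GATA site (AGATAA or TGATAA on either strand), or a run of at least 3 GAA units on either strand. The windows are chrV:18490381-18490581 (plus strand), chrX:11406013-11406213 (minus strand) and chrX:11400088-11400288 (minus strand).
slo-1 upstream: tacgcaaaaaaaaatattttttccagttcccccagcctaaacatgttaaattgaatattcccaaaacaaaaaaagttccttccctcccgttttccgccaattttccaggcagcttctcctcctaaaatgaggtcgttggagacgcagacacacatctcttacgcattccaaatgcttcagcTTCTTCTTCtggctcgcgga
slo-2 upstream: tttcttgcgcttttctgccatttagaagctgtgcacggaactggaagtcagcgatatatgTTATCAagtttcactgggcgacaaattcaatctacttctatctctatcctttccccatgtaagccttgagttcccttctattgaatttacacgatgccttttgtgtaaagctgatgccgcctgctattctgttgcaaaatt
slo-2 intron: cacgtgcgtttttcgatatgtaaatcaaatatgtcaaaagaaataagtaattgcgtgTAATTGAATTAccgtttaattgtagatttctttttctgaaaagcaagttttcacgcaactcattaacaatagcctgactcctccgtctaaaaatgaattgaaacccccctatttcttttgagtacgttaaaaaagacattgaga
The intronic slo-2 window was the sole one of the 15 with the facing TAAT pair, TAATTGAATTA, which began 43 bases before the summit. Paired-type homeodomain proteins are known to bind such pairs as dimers. The pair lay in 90 of the 4780 optimal windows (1.88%). It thus stood at a summit that replicate 1 ranked among its first 4780 entries and replicate 2 did not.

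Of the Shaker-related voltage-gated genes, shl-1 had the best supported summit. shl-1 (WBGene00022240) encodes the Shal-type channel of the A-type current in neurons and muscle, which opens early and inactivates fast. The gene lies on the minus strand of chromosome IV (6378285 to 6384070), and its window, at 10786 bp, was the shortest of the 10. The summit was intergenic, 1203 bp upstream at position 6385273. The signal was 104 (rank 934) in replicate 1 and 114 (rank 1221) in replicate 2, and 214 (rank 1095) in the pooled list. It was also the single entry of the relaxed pooled list in the shl-1 window, although the relaxed list of replicate 2 had 4 entries there.

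The shl-1 summit window, chrIV:6385173-6385373 on the minus strand, is shown because it alone among the 15 holds the GA repeat GAGAGAGA. Capitals mark the repeat, which reads as TC on this strand.
shl-1 upstream: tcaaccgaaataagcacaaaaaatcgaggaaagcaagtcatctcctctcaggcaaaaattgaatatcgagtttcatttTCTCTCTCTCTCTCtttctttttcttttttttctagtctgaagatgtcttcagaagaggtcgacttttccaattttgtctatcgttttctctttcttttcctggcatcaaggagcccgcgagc
The run spans bases 22 to 9 before the summit. GAGAGAGA on either strand lay in 558 of all optimal windows (11.7%), against 1 of 15 (6.67%) here.

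egl-36 (WBGene00001202), the Shaw-type channel gene known for its part in egg-laying behaviour, had 1 summit 3144 bp inside the gene, in the first intron. The gene lies on the plus strand of X (10734326 to 10744355), and the summit at 10737470. The signal was 34.3 (rank 5675) in replicate 1 and 55.8 (rank 3770) in replicate 2, so it lay among the first 4780 entries of replicate 2 alone. The pooled signal was 92 at rank 4198. The strongest of the gene's other 3 pooled entries lay 4231 bp inside it, with a signal of 60.7 at rank 6685.

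exp-2 (WBGene00001374) encodes a voltage-gated channel that ends the action potential of pharyngeal muscle. It lies on the plus strand of chromosome V (6131400 to 6143970) and overlaps the body of ttn-1, the titin gene of muscle. Its summit at 6136386 was within both genes, which position alone cannot tell apart, 4986 bp from the exp-2 start and in an intron of the exp-2 transcripts that span it. The nearest start of an exp-2 transcript, F12F3.1a.3, lay 1120 bp before it. The signal was 55.6 (rank 2962) in replicate 1 and 44.8 (rank 4945) in replicate 2, and 97.3 (rank 3913) in the pooled list. A further pooled entry, 146 bp upstream of that same transcript start, had a signal of 80.9 at rank 4834, just outside the optimal set. Replicate 2 ranked that entry at 4505 and replicate 1 at 7540. The replicates thus placed their strongest exp-2 entry at different points of the gene.

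kvs-1 (WBGene00002242) encodes a voltage-gated channel of chemosensory and other neurons that works with accessory subunits of the KCNE type. It lies on the minus strand of X (7690498 to 7707131). Its 2 summits lay 9392 and 10849 bp inside the gene, at 7697739 and 7696282, and on either side of the start of the short transcript C53C9.3b.1. The former lay 1035 bp upstream of that start and the latter 422 bp downstream of it. At 7697739 the signal was 39 (rank 4794) in replicate 1 and 48.7 (rank 4458) in replicate 2. At 7696282 it was 47.8 (rank 3659) and 48 (rank 4517). Both were weak, with pooled signals of 88.6 and 98.2, and that at 7697739 lay just outside the first 4780 entries of replicate 1.

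The kvs-1 window at 7697739, chrX:7697639-7697839 on the minus strand, is shown because it holds the sole TAATTA core of the 15 windows. Capitals mark the core and a GATA site downstream of it.
kvs-1 intron: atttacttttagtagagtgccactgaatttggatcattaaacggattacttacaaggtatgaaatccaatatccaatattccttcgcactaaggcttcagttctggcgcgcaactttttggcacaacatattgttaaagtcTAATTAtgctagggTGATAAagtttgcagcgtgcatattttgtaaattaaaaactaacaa
TAATTA, which reads the same on both strands, lay in 10.9% of all optimal windows.

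shk-1 (WBGene00014261), the Shaker-type channel gene of neurons and body wall muscle, had no optimal summit. It lies on chromosome II (9758232 to 9768285). Its strongest pooled entry had a signal of 74.7 at rank 5309, 2644 bp upstream of the gene and nearer to the 5' end of ZK1321.1. The entry had a signal of 26.3 (rank 8328) in replicate 1 and 50.1 (rank 4313) in replicate 2. It was thus among the first 4780 entries of replicate 2 but not of replicate 1. The nearest optimal summit lay 11922 bp upstream of the shk-1 start.

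The EAG-related genes unc-103 and egl-2 stood at opposite ends. unc-103 (WBGene00006830) encodes the ERG-type channel, which dampens the excitability of egg-laying and male mating muscle and of motor neurons. It lies on the plus strand of chromosome III (4115385 to 4147278), the longest body of the 10 at 31894 bp, with 19 annotated transcripts from 10 different starts. All 5 summits were in its introns. The strongest, at 4132374 and 16989 bp inside the gene, had a signal of 143 (rank 428) in replicate 1, 180 (rank 395) in replicate 2 and 322 (rank 403) in the pooled list. It was the strongest summit of the 10 genes and the sole one of theirs among the 956 strongest optimal peaks.

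The summits of unc-103 at 4119913 and 4123468 were of middle strength and repeated well. The signal at 4119913, 4528 bp inside the gene, was 78.5 (rank 1689) in replicate 1 and 132 (rank 882) in replicate 2. At 4123468, 8083 bp inside, it was 77.4 (rank 1739) and 115 (rank 1178). Their pooled signals were 205 and 196. The remaining summits were weaker and lay close upstream of a transcript start. That at 4126442 was 152 bp upstream of the start of C30D11.1b.1, with a pooled signal of 98.6 and ranks of 4658 and 3683 in replicates 1 and 2. That at 4138577 was 135 bp upstream of the start shared by 5 transcripts, C30D11.1f.1 among them, with a pooled signal of 88.6 and ranks of 4473 and 3850. All 5 summits were among the first 4780 entries of each replicate, and all 5 ranked higher in replicate 2.

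Entries of the relaxed pooled list were frequent there too. That list had 23 entries in the unc-103 window, the 5 optimal summits included. This made 6.23 per 10 kb, where genes with windows of the members' length range had 2.87 and all genes 2.3. Of the other members, exp-2 had 5.69 and slo-2 5.51, and the rest had fewer. The relaxed list holds background as well as peaks, so these are not densities of separate, repeated sites. Some unc-103 entries had no partner within 100 bp in either replicate list. Others overlapped a stronger one, such as those 206 and 201 bp from an optimal summit. Of the 49 protein-coding genes with windows at least as long, 11 had 5 or more optimal summits, unc-103 included. Over all protein-coding genes, 81 (0.406%) had as many. So many summits were thus rare over all genes and less so in genes of this length.

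Windows of 3 unc-103 summits are shown, because each holds a purine run of GAA units upstream of its summit. Capitals mark runs of at least 3 units. The windows, all on the plus strand, are chrIII:4119813-4120013, chrIII:4126342-4126542 and chrIII:4132274-4132474.
unc-103 at 4119913: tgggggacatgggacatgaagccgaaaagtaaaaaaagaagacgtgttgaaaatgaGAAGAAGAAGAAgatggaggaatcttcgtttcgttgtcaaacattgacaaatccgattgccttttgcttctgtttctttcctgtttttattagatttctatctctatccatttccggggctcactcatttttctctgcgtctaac
unc-103 at 4126442: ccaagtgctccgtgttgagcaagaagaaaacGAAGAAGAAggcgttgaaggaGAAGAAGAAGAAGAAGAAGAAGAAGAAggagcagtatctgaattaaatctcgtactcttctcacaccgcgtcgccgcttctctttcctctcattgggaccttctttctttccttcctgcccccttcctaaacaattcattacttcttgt
unc-103 at 4132374: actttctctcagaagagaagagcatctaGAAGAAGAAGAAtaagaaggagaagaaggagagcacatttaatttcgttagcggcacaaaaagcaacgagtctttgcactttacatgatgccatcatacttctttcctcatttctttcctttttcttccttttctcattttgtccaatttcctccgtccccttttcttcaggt
The runs lay between 72 and 22 bases before the summit, on the strand of the gene in each case. GAAGAAGAA on either strand lay in 4 of the 15 windows, the fourth being the upstream summit of slo-1, against 6.86% of all optimal windows. This motif was chosen after the sequences were seen, so the count is a description of these windows alone.

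egl-2 (WBGene00001171) encodes the EAG channel, whose gain-of-function alleles are known to impair egg laying and defecation. It had no optimal summit and 3 pooled entries, 2.01 per 10 kb of window, beside 2.3 over all genes. The gene lies on the minus strand of chromosome V (1289373 to 1299332). Its strongest pooled entry had a signal of 36.1 at rank 12873 and lay 4182 bp upstream. The same entry ranked 17122 in replicate 1 and 16333 in replicate 2. The relaxed pooled list had no entry inside the 9960 bp of its body, and the nearest optimal summit lay 8148 bp upstream of the start.

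kqt-1 (WBGene00002233), a KCNQ-type channel gene, had no optimal summit and 3 pooled entries. It lies on the plus strand of X (6619012 to 6627995). The strongest pooled entry had a signal of 40.5 at rank 11018, 3442 bp inside the gene in an intron, within the body of clec-266 as well. The entry ranked 15355 in replicate 2. The nearest entry of replicate 1 lay 125 bp from it, beyond the 100 bp allowed for a partner. That replicate 1 entry had a signal of 23.3 at rank 10080. None of the 3 pooled entries of kqt-1 had a partner within 100 bp in both replicate lists. The nearest optimal summit lay 5266 bp upstream of its start, a little beyond the 5000 bp counted.

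**Figure D3:**
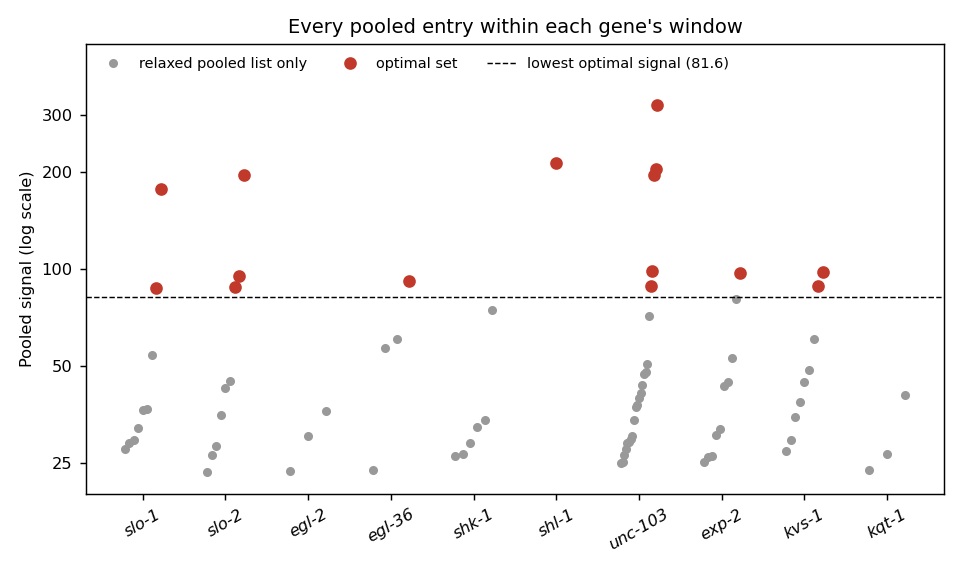
Pooled signal (vertical axis, log scale) of each entry of the relaxed pooled list in the window of each gene, ordered by signal within a gene. Red points are optimal summits, grey points the other entries, and the dashed line is the lowest optimal signal, 81.6. The strongest entries of shk-1 (74.7), kqt-1 (40.5) and egl-2 (36.1) lie below the line, and 9 of the 15 red points lie between it and 98.6.

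By strength, the summits fell into a small stronger set and a larger set near the threshold. The 15 pooled signals ran from 87 to 322 with a median of 98.2, against a median of 138 over the optimal set. Ranks 3825 to 4780, the weakest 20% of the set, held 9 of the 15. Those 9 were at slo-1, slo-2, egl-36, exp-2, kvs-1 and unc-103. The 6 stronger summits, those of the first 2390 ranks, lay upstream of slo-1, slo-2 and shl-1 and in unc-103, which had 3 of them. Of these 6 all were among the first 4780 entries of each replicate, as were 97.7% of all summits of that strength. Of the 9 weaker ones 3 were, beside 21.8% of all summits of that strength.

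**Figure D4:**
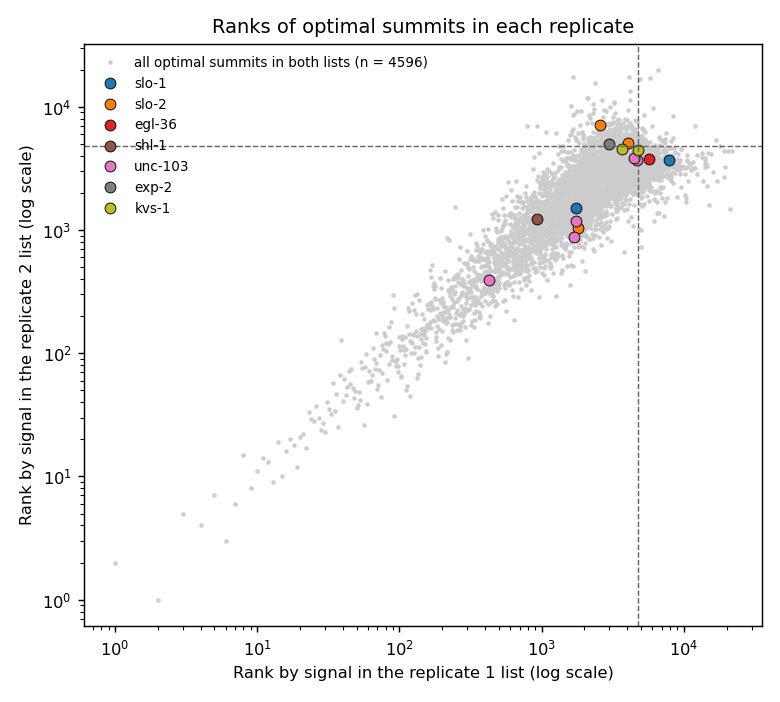
Rank by signal in the replicate 1 list (horizontal axis) and in the replicate 2 list (vertical axis), both on log scales. Grey points are the 4596 optimal summits with a partner within 100 bp in both lists, coloured points the 15 channel summits, and dashed lines mark rank 4780. The unc-103 summit at ranks 428 and 395 is nearest the lower left, and 6 channel summits lie beyond a dashed line.

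Counted over all strengths, 9 of the 15 summits (60%) were among the first 4780 of each replicate, and the other 6 in 1 replicate alone. The share over the optimal set was 76.8%. All 15 had a partner within 100 bp in both relaxed lists. Replicate 2 ranked 10 of them higher and replicate 1 ranked 5 higher, while replicate 2 ranked 51% of all optimal summits higher.

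How many of the 10 genes had a summit depended on the rule, and so did the background. The shares given here are over all genes, whose median window was 7027 bp against 15690 bp for the members. For these rules no share was counted over genes of the members' length. With 2000 bp upstream in place of 5000 bp, 7 of 10 had a summit, against 19.6% of all genes. Where the upstream sequence ended at the next protein-coding gene, 7 of 10 did, against 19.1%. In the gene body alone 5 did, against 5.44%. With the 2390 strongest peaks 4 did, against 16.2%. The 4780 strongest entries of replicate 1 alone gave 6, against 27.2%, and those of replicate 2 alone gave 8, against 27.5%, with egl-36 lost in the former and shk-1 gained in the latter. When a summit was given to the nearest 5' end within 2000 bp, 3 genes had one, slo-1, slo-2 and shl-1, against 12.5%.

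Annotated transcript starts were near some of the summits. Of the 15, 6 lay within 500 bp of the start of a transcript of the same gene. The same share over all gene and summit pairs was not counted, so the 6 are a description alone. Of the 6, 4 lay inside the gene body. These 4 were at slo-2 (68 bp), unc-103 (152 and 135 bp) and kvs-1 (422 bp). That is 4 of 11 body summits, where 27.8% of the pairs in gene bodies of all genes lay as near to a transcript start. The median distance was 1035 bp for the 11 and 1305 bp over all such pairs. The number of annotated starts, 10 in unc-103, 7 in slo-2 and 4 in kvs-1, was not matched in either comparison.

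The 15 windows of 201 bases had a median GC content of 39.3% (32.3 to 45.8%), against 41.8% over all optimal windows. An E-box (CANNTG) lay in 8 of 15, against 55.4%, and a GATA site in 3 of 15, against 16.8%.

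Other potassium channel and accessory genes were counted from a list of 23, all found in the annotation. Of these 13 had a summit in the same window, with 21 summits in all and 0.58 per 10 kb, beside 0.485 and 27.8% with a summit over all genes. Their windows ran from 5695 to 45743 bp, so each class is set beside all genes in the length class of its median window. Of the other voltage-gated genes 3 of 6 had a summit, beside 51.2% of genes of such length. Of the small-conductance calcium-gated genes 3 of 4 had one, beside 63.9%. The inward rectifiers had 2 of 3, beside 51.2%, and the accessory genes 5 of 10, beside 22.3%. Lengths vary widely within these small classes, and no difference was tested.

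The voltage-gated genes with a summit were kvs-2, kvs-3 and kvs-4, with signals of 143, 122 and 181. In replicates 1 and 2 the kvs-2 summit ranked 2015 and 2781, that of kvs-3 2431 and 3749, and that of kvs-4 1675 and 1502. The kvs-4 summit lay 305 bp from the 5' end of Y48A6B.3 and 4647 bp upstream of kvs-4. kvs-5, kqt-2 and kqt-3 had none, so none of the KCNQ-type genes kqt-1, kqt-2 and kqt-3 had a summit. Of the small-conductance genes, kcnl-2 had 4 summits in a window of 38855 bp, the strongest with a signal of 183 and ranks of 2392 and 1102. That summit lay 6052 bp from the 5' end of T02E1.7 and 29763 bp inside kcnl-2. kcnl-4 had 2, the strongest nearer to hda-1, with ranks of 2939 and 1053. kcnl-1 had 1, with a signal of 105 and ranks of 3789 and 4214, which lay 6406 bp from the 5' end of nlp-25 and 34392 bp inside kcnl-1.

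The inward rectifier gene irk-3 held the strongest summit of either list. It had a signal of 839 at rank 16, at the same rank in each replicate, and lay 13391 bp inside the gene, nearer to the 5' end of wdr-5.2. irk-1 had 2 summits, both weak, with the stronger at a signal of 88 and ranks of 3510 and 6550 in replicates 1 and 2. Among the partners of SLO channels, bkip-1, which encodes an accessory subunit of SLO-1, had 2 summits, the stronger with a signal of 302 at rank 474 and ranks of 645 and 380 in replicates 1 and 2. That summit lay 2743 bp upstream of bkip-1 and 902 bp from the 5' end of Y39G8C.2.

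The dystrobrevin gene dyb-1 and the alpha-catulin gene ctn-1, whose products help to place SLO-1 in muscle, had a summit each, 1400 and 3011 bp upstream, with signals of 189 and 107. The dyb-1 summit ranked 1290 in replicate 1 and 1384 in replicate 2, and that of ctn-1 3805 and 3168. islo-1, another SLO-1 partner in muscle, had a weak one 52 bp upstream, with a signal of 84.7 and ranks of 4130 and 4885. hrpu-2, an RNA-binding factor that acts on slo-2, had 2, the stronger nearer to C54E4.1, with ranks of 820 and 1149. The KCNE-type genes mps-1, mps-2, mps-3 and mps-4, and erg-28, which protects SLO-1 from degradation, had none. The median window of the accessory class was 7307 bp.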

How the data were processed

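ChIP-seq peak lists of 2 replicates of 1 group were used on ce11, in narrowPeak format. Per the deposited text files, each replicate list and the pooled list were made as relaxed input for IDR with 1 control file, and the optimal set was derived from them. For the aligner and the peak caller, no name or version was given in the sources used here. The signal value of a peak is the authors' deposited score, separately scaled for every list, and served only to rank peaks within a list. Each ce11 list had its stated checksum and fitted the chromosome lengths of WBcel235. The ce10 lists were not used.

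Summits, 1-based, were counted in gene bodies with 5000 bp upstream (Ensembl release 115) with Python 3.11.15 and pandas 2.3.3. Summits within 100 bp counted as the same site. Counting was tested on planted summits. Motifs were searched on both strands within 100 bases of each summit. The members and the list of other channel genes were chosen with earlier results of these data known. All members, each other channel gene with a summit, and neighbours with a 5' end nearer to a described summit were named. Alternatives were the window, the peak set, each replicate alone, the matching distance and the motif window.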

Additional observations from a re-analysis of the deposited data

How the results depend on the processing

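Of the counts given for the 10 genes as a whole, that of genes with a summit (7) fell to 4 in the 2390 strongest peaks and to 3 with the nearest 5' end within 2000 bp, and lay between 6 and 8 with each replicate alone. The 15 summits fell to 6 in the 2390 strongest peaks and were 13 and 14 with each replicate alone. The count of other channel and accessory genes with a summit (13) fell to 6 in gene bodies alone and to 8 in the 2390 strongest peaks, and was 12 and 13 with each replicate alone. With windows of 200 bases to each side, the TAATTA core and the facing TAAT pair lay at 2 summits each and the GATA site at 5. With 50 bases to each side, the E-box lay at 3 summits, the GATA site at 1 and the GAA run, an alternative chosen after seeing the data, at 2. The fewer or more bases searched and the fewer peaks or bases counted are part of each alternative's construction. The number of summits shared by the first 4780 entries of each replicate (9) stayed between 6 and 9 when the matching distance or the number of entries changed. Of 70 counts recomputed for single genes, 58 were within 1.5 times of the reported count. These include counts of 0 at egl-2, shk-1 and kqt-1, which a narrower window, fewer optimal peaks or merging cannot change. The tally is therefore partly fixed in advance. With replicate 2 alone slo-2 fell from 3 to 1 and shk-1 rose from 0 to 1, and with replicate 1 alone kvs-1 fell from 2 to 1 and egl-36 from 1 to 0. Merging summits within 500 bp could change no count of the 10 genes. Each of their summits lay at least 1457 bp from any other optimal summit. No paired analysis was possible because there was 1 group. Depth is unknown, so what it limits cannot be given.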
